A study of Mus musculus with 4 samples.

Results

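Ccl3, Ccl4, Ccl5 and Xcl1 encode secreted chemokines, and Ccr1 and Xcr1 encode receptors that bind some of them. The values of these 6 genes, of 32285 genes in the count table, were followed across the leukocytes of mouse mammary tumors. The 6 genes were chosen by name, and each was measured as UMIs (unique molecular identifiers, 1 per captured RNA molecule) per 10000 UMIs of a cell type in a tumor. EO771, a mouse mammary carcinoma line, was injected into the mammary gland of female mice, and tumors were taken at a volume of 1.5 cm3. Viable CD45+ cells were sorted and sequenced from the 3′ end of their RNA on the Chromium platform. The 4 mice carried floxed Csf1r alleles, and 2 of them (Lyve1CreCsf1rfl/fl) also carried Cre at Lyve1 while the other 2 (Csf1rfl/fl) did not. The Cre is driven by Lyve1, a gene that lymphatic endothelium expresses besides a subset of macrophages, so recombination is not limited to macrophages. The mice grew tumors from 1 cell line, and their age was not given in the sources used here. Each of 2 Chromium runs pooled a Csf1rfl/fl and a Lyve1CreCsf1rfl/fl tumor marked with different hashtag antibodies, so that n = 2 tumors per genotype. Where 4 values are listed, they belong to the Csf1rfl/fl tumors of runs 1 and 2 and then the Lyve1CreCsf1rfl/fl tumors of runs 1 and 2.

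Chemokines draw leukocytes along gradients by signaling through receptors coupled to G proteins. Ccl3 and Ccl5 both bind Ccr1. Xcl1 has 1 known receptor, Xcr1, which marks the conventional type 1 dendritic cell (cDC1) that cross-presents antigen to CD8 T cells. NK cells, activated T cells and myeloid cells are known sources of these ligands in tumors. By the mm10 annotation GENCODE vM21, Ccl3 (chr11:83647844-83649355, minus strand), Ccl4 (chr11:83662584-83664683, plus strand) and Ccl5 (chr11:83525778-83530518, minus strand) are neighbors. Their starts are 13229 bases apart for Ccl3 and Ccl4 and 118837 bases apart for Ccl5 and Ccl3. Ccr1 (chr9:123962124-123968692) and Xcr1 (chr9:123852315-123862029) are both on the minus strand with starts 106663 bases apart, and Xcl1 is alone on another chromosome (chr1:164931644-164935527, minus strand).

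The 250 bases before the start are shown for the 4 genes with a RefSeq promoter entry, so that the start of each can be read beside its levels across cell types, and Ccl4 and Ccl5 are named only. Each reads 5′ to 3′ on the minus strand of GRCm38.p6, from chr11:83649379-83649628 for Ccl3, chr9:123968693-123968942 for Ccr1, chr1:164935523-164935772 for Xcl1 and chr9:123862030-123862279 for Xcr1. Capitals mark every match to a set of 8 short motifs on either strand. Windows and distances count from the RefSeq start, which for Ccl3 and Xcl1 differs from the GENCODE start given above.
Ccl3: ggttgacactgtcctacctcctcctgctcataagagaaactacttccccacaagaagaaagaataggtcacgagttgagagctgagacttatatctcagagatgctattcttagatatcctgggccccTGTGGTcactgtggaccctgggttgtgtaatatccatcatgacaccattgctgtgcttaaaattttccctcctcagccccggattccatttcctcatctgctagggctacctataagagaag
Ccr1: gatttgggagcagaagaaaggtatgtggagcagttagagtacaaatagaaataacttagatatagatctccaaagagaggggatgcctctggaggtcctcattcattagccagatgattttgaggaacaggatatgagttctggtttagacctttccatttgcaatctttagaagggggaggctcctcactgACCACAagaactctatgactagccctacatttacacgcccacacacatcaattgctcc
Xcl1: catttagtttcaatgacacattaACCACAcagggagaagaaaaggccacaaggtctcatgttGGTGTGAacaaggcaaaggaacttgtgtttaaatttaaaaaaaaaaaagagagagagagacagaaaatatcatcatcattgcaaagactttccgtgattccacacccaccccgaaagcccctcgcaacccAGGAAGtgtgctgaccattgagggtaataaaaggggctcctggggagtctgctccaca
Xcr1: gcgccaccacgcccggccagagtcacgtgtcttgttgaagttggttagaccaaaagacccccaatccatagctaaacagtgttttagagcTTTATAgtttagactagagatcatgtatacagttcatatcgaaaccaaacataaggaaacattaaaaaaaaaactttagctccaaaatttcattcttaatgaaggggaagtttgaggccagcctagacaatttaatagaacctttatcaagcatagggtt
The motifs were listed after these letters had been seen. They were a C/EBP motif (TTGCNNAA, in 9.56% of 32851 RefSeq promoters of the same span), AP-1 (TGANTCA, 6.75%), NF-kB (by name alone, 1.41%), ETS (AGGAAG, 29.5%), Runx (TGTGGT, 14.0%), T-box (GGTGTGA, 3.33%), the TATA box (TATAAA, 12.4%) and ISRE (by name alone, 2.98%). Ccl3 held the Runx letters 122 to 117 bases before its start, and Ccr1 held them 58 to 53 bases before. The Xcl1 window held the ETS letters (58 to 53), the Runx letters (227 to 222) and the T-box letters (188 to 182). The Xcr1 window held only the TATA letters, 160 to 155 bases before the start. No matches overlapped, and a match is a description of letters, not of a bound site.

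Of 53361 barcodes, the authors kept 28429 cells, and by the higher hashtag of the run 8699, 7786, 7173 and 4771 of them belonged to the 4 tumors. Median UMIs per cell lay between 3721 and 4657, 60 barcode sequences among the kept cells occurred in both runs, and 21.3% and 12.8% of the kept cells of runs 1 and 2 were called doublets. Csf1r over all kept cells was 0.898 and 0.964 UMIs per 10000 in the Csf1rfl/fl tumors and 0.427 and 0.454 in the Lyve1CreCsf1rfl/fl tumors. These sums hold cell numbers as well as RNA per cell. Gated C1q macrophages numbered 516, 361, 197 and 106 in the 4 tumors, and gated monocytes 1291, 1269, 850 and 586. The part of cell numbers in the Csf1r difference was not tested. Lineage markers, none of them 1 of the 6 genes, placed 20693 cells in 15 types, and each type had UMIs of every marker on its own list. The other 7736 cells (27.2%) were not gated, and 35.0% of these were doublet calls. Types with few cells were gamma delta T cells (77 cells, 7 of them in the first tumor) and B cells (66 cells, with 10, 5 and 2 in the first 3 tumors). Barcodes with under 5% mitochondrial UMIs and a hashtag over 5 times the other, but left out of the kept cells, numbered 824, 900, 2931 and 5434 in the 4 tumors, and 57.2% of those of the last tumor had a UMI of Cd79a, a B cell gene. The part of that step in the values of the kept cells was not tested. The CD45 sort left 165 cells with epithelial or fibroblast markers, shown beside the other types. Of these, 36.97% were doublet calls, and the part of doublets in their values was not tested. These cells had a median of 48577 UMIs, against at most 10069.5 (cDC1) in the other types. Their levels per 10000 UMIs are therefore no measure of free RNA in shallower cells.

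**Figure D1:**
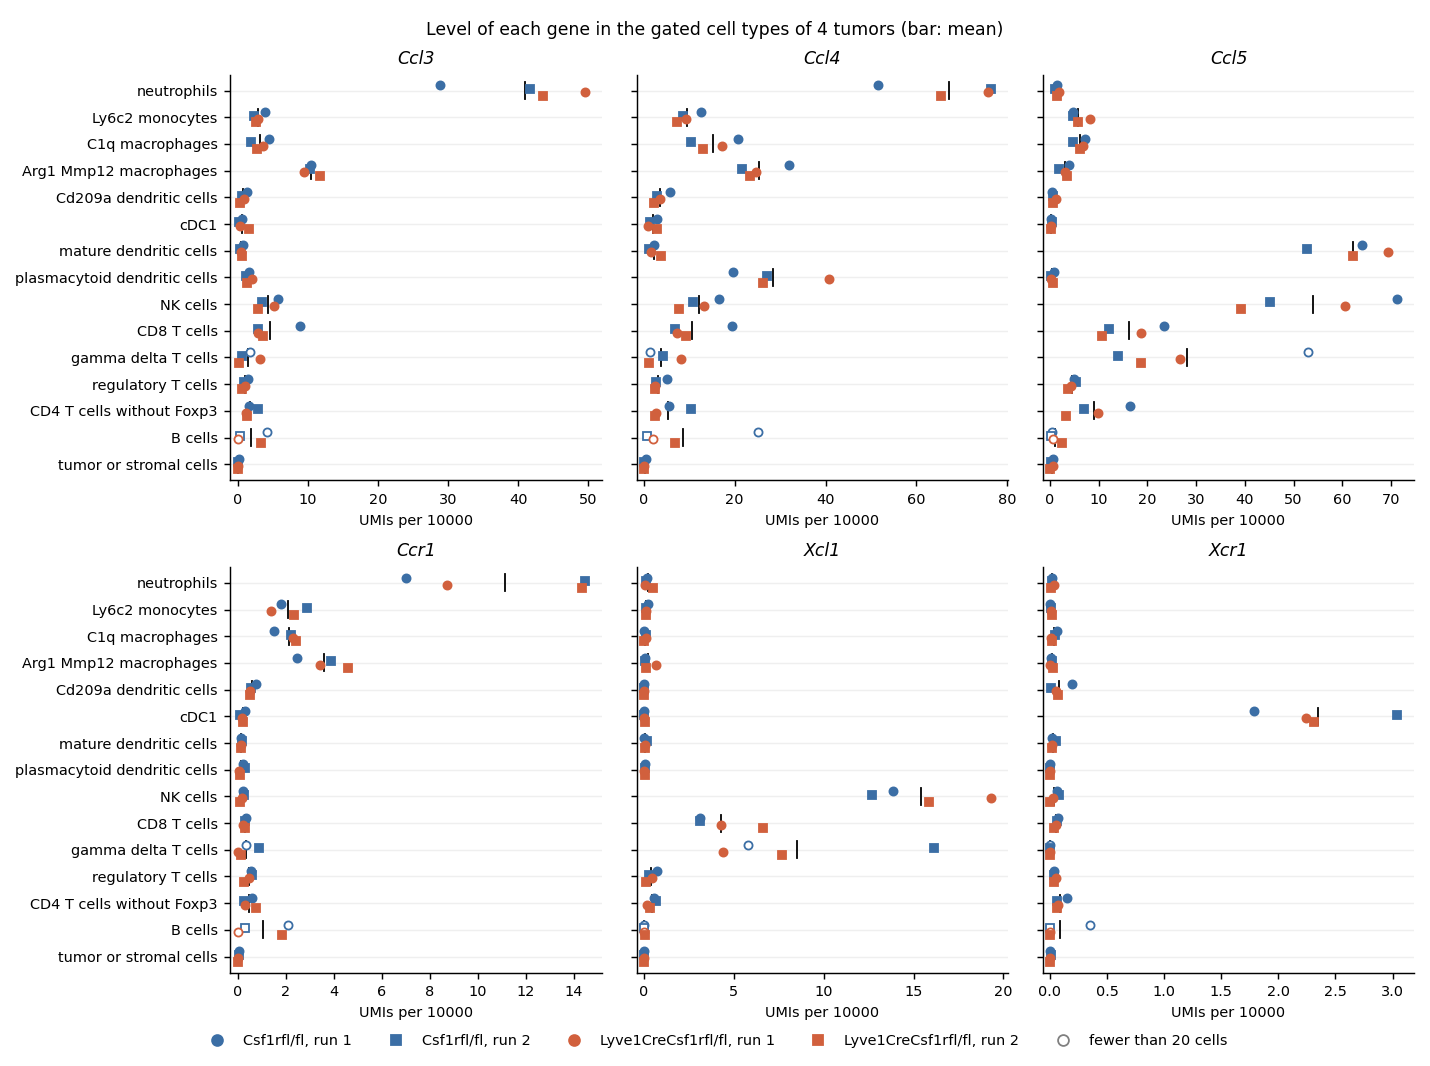
Level of each gene (UMIs per 10000, linear axis) in 15 gated cell types. Points are tumors, blue for Csf1rfl/fl and orange for Lyve1CreCsf1rfl/fl, circles for run 1 and squares for run 2, hollow where a type has fewer than 20 cells, and bars are means over the 4 tumors. Ccl3, Ccl4 and Ccr1 are highest in neutrophils, Ccl5 in mature dendritic cells and NK cells, Xcl1 in NK cells and Xcr1 in cDC1.

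Ccl3, a chemoattractant for monocytes, macrophages and T cells, had its highest level in neutrophils. Its level there was 28.9, 41.8, 49.5 and 43.6 UMIs per 10000 (mean 41.0 ± 8.67 SD, n = 4 tumors), and the mean was 63.7 with clusters in place of gates. Macrophages with Arg1 and Mmp12 came next at 10.5, 10.3, 9.40 and 11.8 (10.5 ± 0.975). These 2 types did not overlap with each other or with the type after them. CD8 T cells (8.96, 2.87, 2.84 and 3.59) and NK cells (5.75, 3.48, 5.21 and 2.93) followed, and their ranges overlapped with each other and with C1q macrophages (mean 3.18) and Ly6c2 monocytes (mean 2.91). Among CD8 T cells, the first Csf1rfl/fl tumor stood far above the other 3. Mature dendritic cells were low, with a mean of 0.529, and tumor or stromal cells lay between 0.0522 and 0.184. In the first Csf1rfl/fl tumor, 348 mature dendritic cells held 143 Ccl3 UMIs and 63 of the deeper tumor or stromal cells held 56. The 6 neutrophil markers together amounted to 1346 to 1673 UMIs per 10000 in neutrophils, 7.14 to 13.2 in Arg1 Mmp12 macrophages and 7.36 to 9.08 in monocytes. These amounts are partly set by the gate, which asked for at least 200 in neutrophils and under 100 in the other types. The part of neutrophil RNA in the Ccl3 of the other types was not tested.

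Cell types were compared in pairs with edgeR's quasi-likelihood test on sums per type and tumor, with the tumor as a block and Benjamini-Hochberg adjustment over 11462 genes. All pairs came from 1 fit over the 15 types, so the spread behind each p-value is pooled over types. Of 54 tests of the 6 genes in 9 pairs, 25 passed the threshold of 0.05, and of all genes tested 7.29% to 55.4% were called, by pair. Between neutrophils and Ly6c2 monocytes, where 55.4% of all genes tested were called, Ccl3 was 28.2-fold higher in neutrophils on the scale of the fit (log2 fold 4.82 ± 0.32 SE, adjusted p = 2.62e-20) and higher in 4 of 4 tumors. The scaling factors of the fit raised all log2 folds of this pair by 0.90. Between C1q macrophages and Arg1 Mmp12 macrophages, where 15.9% of genes were called, Ccl3 was 3.70-fold higher in the Arg1 Mmp12 macrophages (log2 fold −1.89 ± 0.30, C1q minus Arg1 Mmp12, adjusted p = 2.49e-06) in 4 of 4 tumors. This difference depended on how the macrophages were delimited: with unsupervised clusters in place of gates it was −0.29 (adjusted p = 0.551). The clusters are not the same cells as the gates. They held 3213 cells for C1q macrophages (1180 gated) and 907 for Arg1 Mmp12 macrophages (665 gated), the latter at a median of 1864 UMIs (3848 gated). CD8 T cells exceeded CD4 T cells without Foxp3, a pair with 17.3% of genes called, by 1.46 ± 0.34 on the log2 scale (adjusted p = 0.00114), a call that was lost without the first Csf1rfl/fl tumor (0.93). The CD4 gate left out cells with 2 or more NK markers and the CD8 gate did not. The part of this in the differences of this pair was not tested. Between NK cells and CD8 T cells the log2 fold of Ccl3 was −0.00 ± 0.29 and that of Ccl4 0.23 ± 0.34, and neither passed (adjusted p = 1.0 and 0.701).

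Ccl4 followed Ccl3 in neutrophils but not in plasmacytoid dendritic cells, the cells known for type I interferon production. In neutrophils its level was 51.5, 76.4, 75.8 and 65.4 UMIs per 10000 (67.3 ± 11.7, n = 4 tumors), above each tumor's value in every other type. Plasmacytoid dendritic cells were second with 19.5, 27.1, 40.7 and 26.2 (28.4 ± 8.89). The ranges of these cells and of Arg1 Mmp12 macrophages (32, 21.6, 24.8 and 23.4) overlapped, while Arg1 Mmp12 macrophages lay above C1q macrophages (20.7, 10.4, 17.2 and 13.1). NK cells, CD8 T cells and monocytes had means of 12.1, 10.7 and 9.43 with overlapping ranges, and tumor or stromal cells lay between 0.0772 and 0.388. In the test against monocytes, Ccl4 was 14.3-fold higher in neutrophils (log2 fold 3.84 ± 0.38, adjusted p = 1.08e-13). The difference between C1q and Arg1 Mmp12 macrophages did not pass (−0.84 ± 0.34, adjusted p = 0.0853) although the level was higher in the Arg1 Mmp12 macrophages of 4 of 4 tumors, and it turned with clusters in place of gates (0.72). CD8 T cells passed against CD4 T cells without Foxp3 by 1.07 ± 0.37 (adjusted p = 0.0328), with the higher level in 3 of 4 tumors, a call lost without the first Csf1rfl/fl tumor (0.69, adjusted p = 0.220), without either Lyve1CreCsf1rfl/fl tumor (0.98, adjusted p = 0.123, and 0.86, adjusted p = 0.191) and without the tumor as a block (adjusted p = 0.112).

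The number of Ccl4 UMIs for each Ccl3 UMI is free of depth and of the size of a type. In neutrophils it was 1.78, 1.83, 1.53 and 1.50. Plasmacytoid dendritic cells stood at 12.3, 21.8, 20.1 and 19.3, above each value of every other type. C1q macrophages ranged from 4.62 to 5.61, Arg1 Mmp12 macrophages from 1.99 to 3.06, monocytes from 2.79 to 3.72, NK cells from 2.55 to 3.14 and CD8 T cells from 2.16 to 2.57. The C1q macrophages thus lay above the Arg1 Mmp12 macrophages in this ratio with no overlap, whereas both of their separate levels were lower. The ratio in gamma delta T cells, from 0.80 to 9.0, rested on as few as 1 Ccl3 UMI in a tumor.

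**Figure D2:**
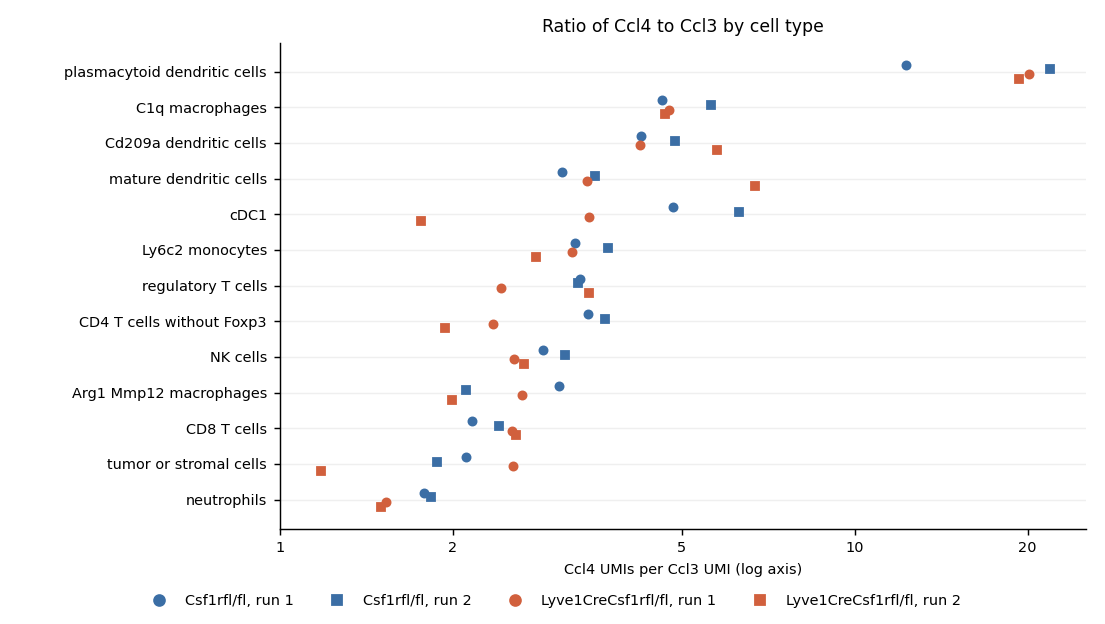
Ccl4 UMIs for each Ccl3 UMI (log axis) in 13 gated cell types, with tumors as points, blue for Csf1rfl/fl and orange for Lyve1CreCsf1rfl/fl. Plasmacytoid dendritic cells lie between 12.3 and 21.8, and neutrophils between 1.50 and 1.83.

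Ccl5, which attracts T cells, NK cells and monocytes, had its highest levels in mature dendritic cells, defined by Ccr7 and Fscn1, and in NK cells. Mature dendritic cells held 64.1, 52.8, 69.5 and 62.1 UMIs per 10000 (62.1 ± 6.92, n = 4 tumors). NK cells held 71.2, 45.1, 60.6 and 39.2 (54.0 ± 14.6), and both tumors of run 1 were above both of run 2. The ranges of these types overlapped. Gamma delta T cells (53.0, 13.9, 26.6 and 18.7), CD8 T cells (23.5, 12.1, 18.8 and 10.8) and CD4 T cells without Foxp3 (16.5, 6.95, 9.84 and 3.31) came after. Neutrophils, highest for the 2 other ligands of this family, lay between 1.11 and 1.93, and cDC1 had the lowest mean of all types (0.214, from 0.115 to 0.356).

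The contrast between dendritic cell types was the largest of the 54. Ccl5 was 285-fold higher in mature dendritic cells than in cDC1 (log2 fold 8.16 ± 0.41, adjusted p = 7.12e-26), higher in 4 of 4 tumors, in a comparison in which 54.2% of genes were called. The cDC1 mean (0.214) lay below that of tumor or stromal cells (0.424, from 0.0772 to 0.704). The latter is no measure of free RNA in the shallower cDC1. The size of this fold rests on few counts, with 16, 68, 9 and 9 Ccl5 UMIs in the cDC1 of the 4 tumors. The part of free RNA in these counts was not tested. Between NK cells and CD8 T cells, with 19.9% of genes called, Ccl5 was 3.36-fold higher in NK cells (1.75 ± 0.28, adjusted p = 1.00e-06) in 4 of 4 tumors. It was also higher in NK cells than in gamma delta T cells (1.48 ± 0.30, adjusted p = 4.86e-04), with 7.29% of genes called, but not with clusters in place of gates (0.67, adjusted p = 0.185), where the cluster named for gamma delta T cells had 1562 cells. Ccl3 (2.21 ± 0.57, adjusted p = 0.00787) and Ccl4 (1.97 ± 0.49, adjusted p = 0.00581) passed in the same pair, each higher in NK cells of 4 of 4 tumors, and neither passed when counts were scaled by library size only (adjusted p = 0.0603 and 0.0547).

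Smaller Ccl5 differences passed the test but rested on single tumors or settings. CD8 T cells exceeded CD4 T cells without Foxp3 by 1.0 ± 0.28 (adjusted p = 0.00889), which was lost without the first Lyve1CreCsf1rfl/fl tumor (adjusted p = 0.0563) and without the tumor as a block (adjusted p = 0.122). Regulatory T cells were lower than CD4 T cells without Foxp3 (−0.87 ± 0.29, adjusted p = 0.0417, lower in 3 of 4 tumors, with 9.21% of genes called), a call lost without the first tumor of either genotype (adjusted p = 0.272 and 0.225) and without the block (adjusted p = 0.150). C1q macrophages exceeded Arg1 Mmp12 macrophages by 0.94 ± 0.30 (adjusted p = 0.0217), a call lost without the second Csf1rfl/fl tumor (adjusted p = 0.121), without the first Lyve1CreCsf1rfl/fl tumor (adjusted p = 0.102) and without the block (adjusted p = 0.161). Neutrophils were lower than monocytes (−1.05 ± 0.29, adjusted p = 0.00130, lower in 4 of 4 tumors), a direction that turned with clusters in place of gates (0.71). cDC1 were lower than dendritic cells with Cd209a (−1.43 ± 0.44, adjusted p = 0.0103, with 26.7% of genes called), which was lost without the first Lyve1CreCsf1rfl/fl tumor (adjusted p = 0.226) and under a gate that asked for fewer cDC1 markers (−0.44, adjusted p = 0.530).

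Ccr1, a receptor for Ccl3 and Ccl5, was highest in the same 2 types as Ccl3. Neutrophils held 7.03, 14.5, 8.73 and 14.3 UMIs per 10000 (11.1 ± 3.83, n = 4 tumors), and both tumors of run 2 were above both of run 1. Neutrophils of run 2 were also shallower, with a median of 1812 and 1823 UMIs per cell against 2585 and 2430 in run 1. Whether depth had a part in the difference between runs was not tested. Arg1 Mmp12 macrophages followed at 2.49, 3.90, 3.44 and 4.59 (3.60 ± 0.882) and lay above C1q macrophages (mean 2.12, at most 2.45). The range of monocytes (mean 2.10, from 1.38 to 2.90) overlapped with both kinds of macrophages. B cells came next, with a mean of 1.06 from 66 cells and a range from 0 to 2.08. T and NK cells had less Ccr1, with a mean of 0.290 in CD8 T cells and 0.202 in NK cells, and mature dendritic cells had 0.150. Ccr1 was 9.95-fold higher in neutrophils than in monocytes (log2 fold 3.31 ± 0.22, adjusted p = 3.38e-20) and higher in Arg1 Mmp12 than in C1q macrophages (C1q minus Arg1 Mmp12, −0.86 ± 0.23, adjusted p = 0.00619), each in 4 of 4 tumors. The macrophage difference was gone with clusters in place of gates (0.03). Ccr1 was lower in cDC1 than in Cd209a dendritic cells (−1.59 ± 0.38, adjusted p = 7.95e-04).

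Xcl1, the ligand of Xcr1, was a gene of NK cells and of a part of the T cells. NK cells held 13.8, 12.7, 19.3 and 15.9 UMIs per 10000 (15.4 ± 2.90, n = 4 tumors). Gamma delta T cells (5.78, 16.1, 4.38 and 7.67) overlapped with them in the second Csf1rfl/fl tumor only, where 1 of 23 cells held 93 of 145 Xcl1 UMIs. CD8 T cells (3.14, 3.14, 4.3 and 6.63, mean 4.3 ± 1.65) lay above CD4 T cells without Foxp3 (mean 0.453) and regulatory T cells (mean 0.409). No type outside the lymphocytes exceeded 0.698 in any tumor. In the first Lyve1CreCsf1rfl/fl tumor, 1 NK cell held 522 of 3292 Xcl1 UMIs, and without the top cell of each tumor the NK levels were 13.2, 11.8, 16.4 and 14.9. Without the top cell the gamma delta levels were 2.08, 6.08, 3.20 and 5.93, below each of these. Xcl1 was 3.62-fold higher in NK cells than in CD8 T cells (log2 fold 1.85 ± 0.30, adjusted p = 1.68e-06) and 10.5-fold higher in CD8 T cells than in CD4 T cells without Foxp3 (3.39 ± 0.44, adjusted p = 1.80e-08), each in 4 of 4 tumors. The gates of CD4 and gamma delta T cells, unlike that of CD8 T cells, left out cells with 2 or more NK markers. The part of this in the folds was not tested. The difference between NK cells and gamma delta T cells did not pass (1.08 ± 0.37, adjusted p = 0.0573), with NK cells higher in 3 of 4 tumors. It passed without the second Csf1rfl/fl tumor (1.92, adjusted p = 0.00328). Between neutrophils and monocytes Xcl1 passed at 1.25 ± 0.44 (adjusted p = 0.0136), but the mean levels were 0.219 and 0.130 and the level was higher in neutrophils of 2 of 4 tumors. That call was lost without the second Lyve1CreCsf1rfl/fl tumor (0.76, adjusted p = 0.192), in which 1 neutrophil held 49 of 59 Xcl1 UMIs, and when counts were scaled by library size only (0.37, adjusted p = 0.448).

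Xcr1, the receptor of Xcl1, was a gene of cDC1. Its level in cDC1 was 1.79, 3.04, 2.25 and 2.31 UMIs per 10000 (2.35 ± 0.518, n = 4 tumors), and the highest value of any other type in any tumor was 0.347, in B cells of a tumor with 10 of them. Mature dendritic cells, which can arise from cDC1, lay between 0.0147 and 0.0522. Plasmacytoid dendritic cells held 0 of 2104342 UMIs, which allows up to 0.0143 UMIs per 10000, and gamma delta T cells 0 of 248729, which allows up to 0.121 (3 counts over the total of the 4 tumors, counting error only). Xcr1 was 39.3-fold higher in cDC1 than in Cd209a dendritic cells (log2 fold 5.30 ± 0.33, adjusted p = 3.31e-19) and 79.1-fold lower in mature dendritic cells than in cDC1 (−6.31 ± 0.33, adjusted p = 1.25e-23), each in 4 of 4 tumors. Cells that met the marker rules of both mature dendritic cells and cDC1 were in neither type, and their Xcr1 is not part of this fold. Calls at levels under 0.1 were not stable. Neutrophils passed against monocytes (2.06 ± 0.60, adjusted p = 0.00289) at means of 0.0205 and 0.0108, and monocytes against C1q macrophages, a pair with 21.7% of genes called, at −1.92 ± 0.60 (adjusted p = 0.0153). The former was lost without the first Lyve1CreCsf1rfl/fl tumor (1.53, adjusted p = 0.116), the latter without the first Csf1rfl/fl tumor (−1.16, adjusted p = 0.288), and both without doublet calls (adjusted p = 0.316 and 0.298).

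The share of cells with at least 1 UMI was compared after each cell was thinned to 1000 UMIs, which left out at most 47 cells of a type in a tumor. Ccl3 was found in 60.2 to 73.2% of neutrophils (66.0 to 82.6% unthinned), Ccl4 in 49.5 to 63.5% (53.5 to 72.6%) and Ccr1 in 53.7 to 74.7% (83.7 to 90.1%). Tumor or stromal cells, which should lack these genes, gave at most 2.56% for each of them after thinning, but 22.6 to 31.25% for Ccl3, 34.4 to 48.7% for Ccl4 and 6.25 to 19.4% for Ccr1 unthinned. Their median depth was 48577 UMIs against 2138 in neutrophils, so the thinned share is no measure of free RNA in shallow cells. Detection of Ccl4 in plasmacytoid dendritic cells (50.4 to 62.3%, and 66.5 to 81.2% unthinned) was close in range to that in neutrophils, at a lower level. Ccl5 was found in 66.0 to 72.7% of mature dendritic cells (82.0 to 84.2%) and 59.9 to 72.0% of NK cells (73.8 to 85.6%), against 0 to 6.45% of tumor or stromal cells (25.0 to 56.4% unthinned). Xcl1 was found in 36.6 to 43.3% of NK cells (54.1 to 61.6%) and 9.0 to 18.2% of CD8 T cells (19.0 to 34.7%), against 0 to 2.56% of tumor or stromal cells (0 to 12.5%). In cDC1, 62.8 to 65.5% of cells had an Xcr1 UMI at their median of 10069.5 UMIs, but 9.72 to 20.9% after thinning, so that most of the detection of this low gene rested on depth. Tumor or stromal cells had 0 to 3.23% unthinned and 0% after thinning.

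In neutrophils the UMIs of Ccl3 and Ccl4 were held by fewer cells than those of Ccr1. The top 10% of neutrophils by UMIs of a gene held 37.2 to 49.8% of their Ccl3 UMIs, 46.1 to 58.1% of Ccl4 and 28.6 to 30.3% of Ccr1. In Arg1 Mmp12 macrophages the top 10% held 69.3 to 80.7% of Ccl3. For Ccl5 the share was 46.6 to 57.4% in mature dendritic cells and 37.1 to 44.6% in NK cells. In NK cells the top 10% held more of the other ligands, with 60.9 to 73.4% of Ccl3 and 58.7 to 67.0% of Xcl1. In CD8 T cells the top 10% held 54.3 to 75.1% of Ccl3 and 83.2 to 91.8% of Xcl1. Such a share rises by counting alone where cells hold few UMIs of a gene. Medians per NK cell were 9 to 22 UMIs for Ccl5, 0 to 1 for Ccl3 and 1 for Xcl1. The median of Xcl1 per CD8 T cell was 0. Genes of unlike level are therefore not ranked by this share.

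Genes found in the same cells were counted for 5 gene pairs in 15 types, chosen after the data had been seen. NK cells with a Ccl5 UMI less often had an Xcl1 UMI, with 27.5, 30.2, 38.7 and 28.1% against 60.2, 61.0, 54.7 and 57.9% of NK cells without Ccl5, each cell thinned to 1000 UMIs. CD8 T cells had the same direction in 4 of 4 tumors, with 4.84, 5.07, 9.79 and 14.2% against 19.7, 13, 14.8 and 21.4%. Gamma delta T cells, regulatory T cells and Ly6c2 monocytes had the opposite direction in 3 of 4 tumors each. Gamma delta T cells had 4 to 16 cells with Ccl5 in a tumor, and regulatory T cells and monocytes had shares of at most 3.5%. Cells with Ccl4 also less often had Xcl1, among CD8 T cells in 4 of 4 tumors and among NK cells in 3 of 4. Arg1 Mmp12 macrophages had the opposite direction in 3 tumors and gamma delta T cells in 2. Ccl4 and Ccl3 went the other way from Ccl5 and Xcl1. Neutrophils with a Ccl3 UMI had a Ccl4 UMI in 73.1, 72.5, 71.8 and 67.4% of cells, against 39.1, 34.0, 40.7 and 22.3% of those without. In NK cells, Ccl5 was found in 87.4, 81.7, 87.0 and 77.7% of cells with Ccl4 and 60.3, 66.2, 63.1 and 50.3% of cells without. Neutrophils with Ccl3 had Ccr1 in 56.8, 76.8, 61.0 and 77.2% and those without in 48.7, 71.5, 51.9 and 68.3%, differences smaller than that between the runs. No test was made over cells, which share their tumor.

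**Figure D3:**
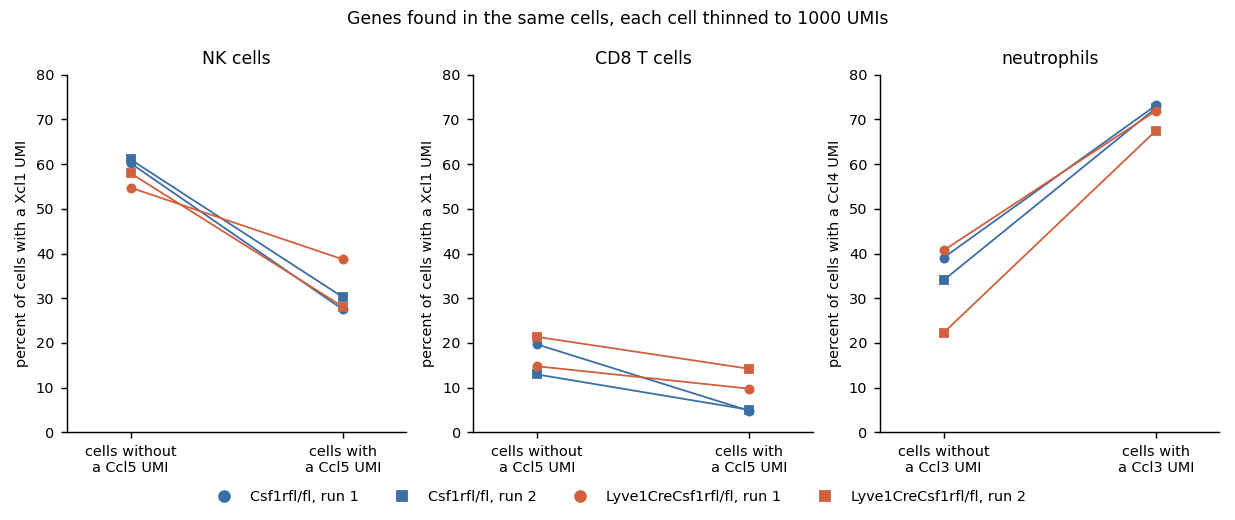
Percent of cells with a UMI of the second gene (y axis, 0 to 80%) among cells without and with a UMI of the first gene, after thinning to 1000 UMIs per cell. Each line is a tumor, blue for Csf1rfl/fl and orange for Lyve1CreCsf1rfl/fl. Xcl1 is less frequent in NK cells and CD8 T cells with Ccl5 in 4 of 4 tumors, and Ccl4 is more frequent in neutrophils with Ccl3.

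The cells that hold most of a gene's RNA in a tumor depend on the number of cells as well as on the level per cell. Neutrophils held 25.4, 40.3, 49.2 and 30.8% of all Ccl3 UMIs of the kept cells, 19.2, 36.4, 43.6 and 24.1% of Ccl4 and 31.4, 41.2, 49.1 and 35.8% of Ccr1. Plasmacytoid dendritic cells, second in level, held 1.36 to 2.90% of Ccl4. CD8 T cells held 15.5 and 9.77% of Ccl3 in the first Csf1rfl/fl and the second Lyve1CreCsf1rfl/fl tumor and 3.69 and 2.34% in the other 2. For Ccl5, mature dendritic cells held 14.0, 26.3, 33.6 and 24.4%, NK cells 16.7 to 18.0% and CD8 T cells 10.7 to 21.5%. Among gated types, Xcl1 was held mostly by NK cells (24.9 to 38.8%) and CD8 T cells (17.9 to 31.4%), although the level in CD8 T cells was lower in each tumor. cDC1 held 39.7, 79.5, 65.8 and 57.7% of Xcr1. Cells that were not gated, whose lineage was not assigned, held 40.1 to 45.3% of Ccl3, 36.9 to 42.1% of Ccl4, 27.6 to 36.8% of Ccl5, 30.4 to 40.5% of Ccr1, 38.9 to 48.1% of Xcl1 and 7.14 to 22.6% of Xcr1. They held more Ccl3 than neutrophils in 3 of 4 tumors and more Xcl1 than NK cells or CD8 T cells in 4 of 4.

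**Figure D4:**
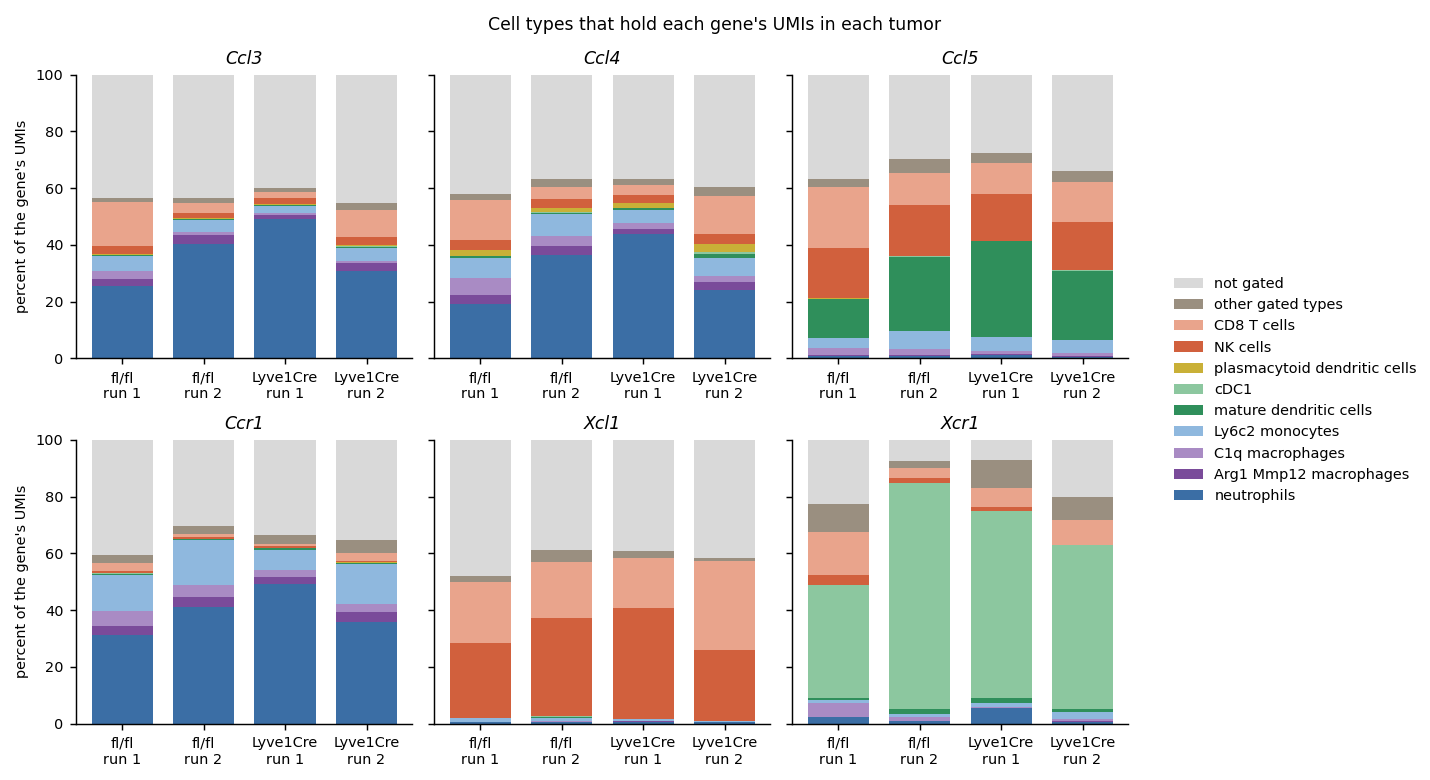
Percent of each gene's UMIs (y axis, 0 to 100%) held by each cell type in each of the 4 tumors, with cells not gated in light gray. Neutrophils hold 25.4 to 49.2% of Ccl3 and cDC1 39.7 to 79.5% of Xcr1.

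For each of the 6 genes, the 3 genes with the most similar pattern were taken by Pearson's r on log2(UMIs per 10000 plus 0.1) over 60 sums (15 types in 4 tumors), among 5606 genes. The sums of 1 type share their lineage and those of 1 tumor their library, so r is a description. Ccl3 was closest to Ccl4 (0.89), Egr1 (0.88), an immediate early transcription factor, and Entpd1 (0.85), which encodes the ectonucleotidase CD39. Ccl4 was closest to Ccl3, Il10rb (0.79) and Pik3ap1 (0.79). Ccl5 had the noncoding RNA AW112010 (0.85), Adora2a (0.81), an adenosine receptor, and Stat4 (0.79), a transcription factor of interleukin signaling. Ccr1 was closest to Tarm1 (0.95), Ccl6 (0.94) and Rnf149 (0.93), all highest in neutrophils. Xcl1 was closest to Klrc2 (0.96), an activating NK receptor, Fasl (0.96), the death ligand, and Ctsw (0.95), a protease of cytotoxic cells. Xcr1 was closest to Gpr141b (0.95), Snx22 (0.95) and Gcsam (0.87), all highest in cDC1. Between the 6 genes themselves, r was 0.76 for Ccl3 and Ccr1, 0.67 for Ccl5 and Xcl1 and −0.18 for the ligand Xcl1 and its receptor Xcr1.

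A list of 20 genes of the same network (ligands such as Ccl6, Ccl7, Ccl9 and Ccl12, receptors such as Ccr3 and Ccrl2, and transcription factors known to act on some of the 6 genes) had 16 genes tested in each pair. Between neutrophils and monocytes, 5 were higher and 6 lower in neutrophils, where 55.4% of all genes were called. The 2 largest were Ccrl2, an atypical receptor that presents chemerin (14.8 against 1.71 UMIs per 10000, log2 fold 4.03 ± 0.22), and Ccl6 (18.2 against 2.27, 3.92 ± 0.27), a ligand of Ccr1. Of the other 3, Klf13 and Rel were lower in neutrophils per 10000 UMIs and higher only after scaling, and Ccl8 lay under 0.1. Arg1 Mmp12 macrophages had more Ccl6 (5.97 against 2.39) and Ccl9 (5.01 against 1.91), both ligands of Ccr1, and less of the monocyte attractants Ccl7 (3.62 against 7.86) and Ccl12 (4.17 against 12.2) than C1q macrophages, with 4 of 16 genes higher and 3 lower in C1q macrophages (15.9% of all genes called). Monocytes had 3 higher and 5 lower than C1q macrophages (21.7% of all genes called), among them Ccl7 (0.682 against 7.86) and Ccl12 (2.44 against 12.2).

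In cDC1, 2 of the 16 genes were higher and 10 lower than in Cd209a dendritic cells, where 26.7% of all genes were called. The 2 were Batf3 (2.52 against 0.422, log2 fold 2.75 ± 0.22) and Irf8 (14.9 against 1.79, 3.17 ± 0.21), the transcription factors on which cDC1 depend. Mature dendritic cells, with the most Ccl5, had 5 higher and 0 lower than cDC1, below the share of all genes called (54.2%), led by the NF-kB family members Rel (6.31 against 0.746, 3.26 ± 0.17) and Nfkb1 (3.48 against 0.937, 2.07 ± 0.13). NK cells had 5 higher and 0 lower than CD8 T cells (19.9% of all genes called). Among these were Eomes, itself an NK marker of the gate, Irf8 (8.41 against 2.49), Nfkb1 (1.90 against 1.19) and Tbx21 (0.866 against 0.534), which encodes T-bet. NK cells had 4 higher and 2 lower than gamma delta T cells (7.29% of all genes called). CD8 T cells had 4 higher, among them Runx3 (3.86 against 1.62), and 2 lower than CD4 T cells without Foxp3 (17.3% of all genes called), and regulatory T cells had 0 higher and 1 lower (9.21%).

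The last comparison asked whether these genes differed between genotypes within a cell type. None of the 69 tests of a member in a type passed (edgeR's quasi-likelihood test, smallest adjusted p = 0.461), and DESeq2 called 0 of 68. By edgeR 7 were at an unadjusted p under 0.05, a count not set against the share of all genes and so not a result about the members. Among all genes tested, 0.0152% were called in Arg1 Mmp12 macrophages, 0.0482% in cDC1, 0.102% in gamma delta T cells and 0% in the other types, 5 genes in all. The tumors of the 2 genotypes did not overlap in 14 of the 69 on levels scaled by the factors of the fit. On the unscaled levels printed here they did not overlap in 19 (27.5%, against 22.7% of all genes tested). Without the cell with the most UMIs of the gene in each tumor they did not in 18 (26.1%, against 23.6%), 15 of them among the 19. Among all genes tested, on scaled levels, 21.2% (Ly6c2 monocytes) to 30.3% (gamma delta T cells) did not overlap, with 29% in C1q macrophages, 27.6% in Arg1 Mmp12 macrophages, 23.9% in Cd209a dendritic cells, 25.2% in cDC1, 23.6% in tumor or stromal cells, 30% in regulatory T cells, 25.1% in plasmacytoid dendritic cells and 24.9% in B cells. An exact permutation test of 2 against 2 tumors cannot give a p below 0.333. In fits without 1 tumor, which take the spread of the single tumor left in a genotype from the other 2, 3 tests passed without the first Csf1rfl/fl tumor (Xcl1 in Arg1 Mmp12 macrophages, Ccl4 in CD4 T cells without Foxp3 and Ccl3 in cDC1), 3 without the second (Ccl3 in CD8 T cells, Ccl4 in B cells and Ccl4 in tumor or stromal cells), 3 without the first Lyve1CreCsf1rfl/fl tumor (Ccl3 in cDC1, Ccl5 in CD4 T cells without Foxp3 and Ccl5 in tumor or stromal cells) and 1 without the second (Xcl1 in Arg1 Mmp12 macrophages). The members tested in these fits numbered 72, 73, 74 and 75 over the gated types, where 0.158, 0.351, 0.123 and 0.141% of all tests of a gene in a type were called. Some of these values rested on 1 cell. In cDC1 of the second Lyve1CreCsf1rfl/fl tumor, 1 of 43 cells held 67 of 79 Ccl3 UMIs, and without it the level fell from 1.63 to 0.255. In the first Lyve1CreCsf1rfl/fl tumor, 1 Arg1 Mmp12 macrophage held 21 of 41 Xcl1 UMIs. In the first Csf1rfl/fl tumor, 1 B cell held 151 of 289 Ccl4 UMIs and 1 tumor or stromal cell 68 of 118.

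In neutrophils the Ccl3 level of both Lyve1CreCsf1rfl/fl tumors (49.5 and 43.6) was above both Csf1rfl/fl tumors (28.9 and 41.8), with a log2 fold of 0.46 ± 0.40 (Lyve1CreCsf1rfl/fl minus Csf1rfl/fl) and 0.78 and 0.06 within runs 1 and 2. In neutrophils 23.8% of all genes did not overlap. Ccl4 (0.21 ± 0.41) and Ccr1 (0.15 ± 0.41) overlapped between genotypes. Xcl1 in CD8 T cells was 3.14 in both Csf1rfl/fl tumors and 4.3 and 6.63 in the Lyve1CreCsf1rfl/fl tumors (0.80 ± 0.25, adjusted p = 1.0, 0.45 and 1.08 within runs), in a type in which 23.3% of genes did not overlap. In NK cells, where 23% of genes did not overlap, the fold of Xcl1 was 0.40 ± 0.33, and the genotypes overlapped on scaled levels but not on the unscaled levels given above. Over all kept cells, where 25.1% of 14731 genes did not overlap and 0 were called, Xcl1 was 2.04 and 1.66 against 2.37 and 3.46 (0.58 ± 0.25, 0.22 and 1.06 within runs), the only 1 of the 6 that did not overlap. In sums over all cells, fewer cells of a type and less RNA per cell cannot be told apart.

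The lowest adjusted p belonged to Ccl4 in CD4 T cells without Foxp3, at 5.61 and 10.5 against 2.73 and 2.56 UMIs per 10000 (−1.56 ± 0.33, −1.04 and −2.03 within runs), from 77 to 128 cells per tumor. A single cell held 118 of 303 and 181 of 335 of the Ccl4 UMIs of the Csf1rfl/fl tumors, and without the top cell of each tumor the levels were 3.44 and 4.89 against 1.97 and 1.85. In these cells, Ccl3 (1.63 and 2.85 against 1.16 and 1.32) and Xcl1 (0.592 and 0.689 against 0.201 and 0.329) also did not overlap, and 27.1% of all genes tested in these cells did not. For Ccl3, 1 cell of the second Csf1rfl/fl tumor held 63 of 91 UMIs, and without the top cell of each tumor Ccl3 overlapped (1.08 and 0.890 against 0.972 and 0.616) while Xcl1 did not (0.374 and 0.385 against 0.162 and 0.0780). Ccl5 in mature dendritic cells (0.17 ± 0.34), in NK cells (−0.24 ± 0.41) and in CD8 T cells (−0.26 ± 0.46), Ccl4 in plasmacytoid dendritic cells (0.53 ± 0.30) and Xcr1 in cDC1 (−0.02 ± 0.27) overlapped between genotypes. Of the 20 genes of the network, 17 were tested in at least 1 type. Of their 164 tests, 0 passed with edgeR or DESeq2. By edgeR 20 were at an unadjusted p under 0.05, a count not set against the share of all genes and so not a result about the list.

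**Figure D5:**
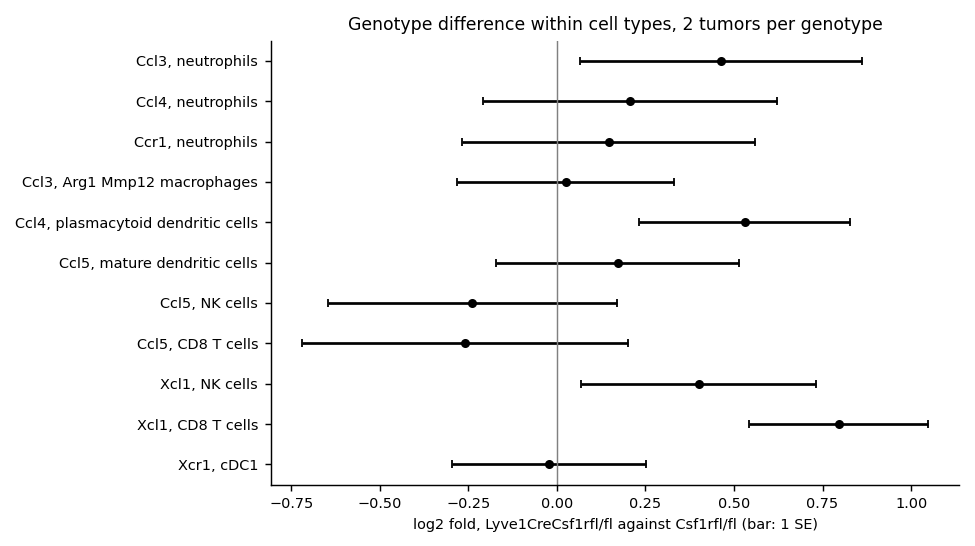
Log2 fold of Lyve1CreCsf1rfl/fl over Csf1rfl/fl tumors (x axis, bars are 1 SE from edgeR's quasi-likelihood test, n = 2 tumors per genotype) for 11 combinations of gene and cell type. No combination passed the test, and Ccl3 in neutrophils is at 0.46 and Xcr1 in cDC1 at −0.02.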

How the data were processed

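Viable CD45+ cells of 4 EO771 tumors were sequenced in 2 Chromium runs. The authors aligned reads to mm10 with Cell Ranger 6.0.1 and deposited the UMI count of each gene in each barcode and the count of 2 hashtag antibodies, both without normalization. The authors also deposited a table of scores, whole-number values corrected by Seurat for the cells kept as singlets with under 5% mitochondrial UMIs, from which only the names of the kept cells were taken. By the study's methods, 4 clusters made up mostly of cells of the second Lyve1CreCsf1rfl/fl tumor were also dropped, so levels, shares and sums over all kept cells rest on what that step left, B cells in particular. Hashtag columns are named for their tumor, and each kept cell went to the higher hashtag of its run. For 75 kept cells the raw counts favored the other hashtag than the normalized ones.

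Cells were gated by lists of markers. In the version used, the gates of regulatory, gamma delta and CD4 T cells left out cells with 2 or more NK markers, and that of CD8 T cells did not. Cells that met the marker rules of both mature dendritic cells and cDC1 were placed in neither type. The 6 genes, the marker lists and the list of 20 genes were chosen with earlier results of these data known. Thresholds of the gates were set after the counts were seen, and 2 versions were run. The first asked for 2 cDC1 markers (471 cells) and 2 different gamma delta markers (47 cells, under the minimum of 50). The one used asks for 3 cDC1 markers (358 cells) and counts gamma delta UMIs (77 cells, 37 in both). It was changed after the sizes and the overlap with clusters were seen and before levels of the 6 genes were printed. As an alternative, 22 Leiden clusters (scanpy 1.11.5, resolution 1, without the 6 genes) were named by their leading marker list, 3 with over 50% doublet calls were left unnamed, and none was named for CD4 T cells without Foxp3.

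UMIs were summed per type and tumor. Tests used edgeR 4.0.16 in R 4.3.3 (filterByExpr, TMM factors, quasi-likelihood test, Benjamini-Hochberg adjustment over all genes tested, threshold of 0.05), with the SE taken from the log2 fold and the statistic. Pairs of types were tested with the tumor as a block and genotypes without a block. Replicate numbers mark the shared run by the labels, and deviations of same-numbered tumors correlated with r = 0.0918 to 0.412 over genes, by type. Over the more abundant genes of each type, r was 0.140 (CD4 T cells without Foxp3) to 0.728 (Ly6c2 monocytes). It was 0.684 in neutrophils and 0.654 in mature dendritic cells. Genotype tests with run as a block were an alternative. DESeq2 1.42.0 was an alternative, with poscounts size factors for pairs. Doublets were called by Scrublet. Python 3.11.15 was used with pandas 2.3.3, numpy 2.4.6, scipy 1.17.1 and, for plots, matplotlib 3.10.9. Tests were tried on simulated data. Named genes are the 6, the list of 20 and the 3 most similar genes of each. Values of 1 gene of the list are not reported here. The pairs of genes counted in the same cells, the motifs, the first gate, scaling by library size only and levels without the top cell were added after the data were seen. Counting error alone sets the limits at 0 counts (3 counts), and p-values of the genotype tests measure the spread between tumors only. Those of the pair tests rest on a spread pooled over the 15 types of 1 fit, after the tumor block, and not on the compared types alone. UMI counts from the 3′ end were not divided by gene length, so levels are compared between cell types and not between genes.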

Additional observations from a re-analysis of the deposited data

How the results depend on the processing

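The type with the highest level was the same for 6 of 6 genes with clusters, without doublet calls, with a hashtag ratio of at least 3 and with the first gate. The neutrophil levels of Ccl3 and Ccl4 rose to 63.7 and 96.4 UMIs per 10000 with clusters and to 49.9 and 80.5 without doublet calls. Of the 54 tests between types, 25 passed in the fit reported, and 18 (DESeq2) to 37 (no filter on low counts) under the alternatives, 20 with library size only and 21 without the replicate block. With clusters 42 of the 54 could be run, 22 passed, and 14 of these were among the 20 calls that had a cluster test. Of the 24 with the first gate, 23 were among the 25. DESeq2 did not call Ccl5 between neutrophils and monocytes (adjusted p = 0.0553) or Ccr1 between macrophages (adjusted p = 0.153). Between genotypes 0 tests passed in the fit reported and 2 with no filter. The count with no filter was not set against the share of all genes, so it is not a result about the members. Apart from the fits without 1 tumor, 0 passed under every other alternative run. With run as a replicate block, which pairs the tumors, 0 passed and no call changed, and the log2 fold of Xcr1 in cDC1 turned to 0.017. Genotype folds that changed sign when 1 tumor was left out ranged from −0.034 to 0.53 for Ccl4 and −0.27 to 0.77 for Ccr1 in neutrophils, −0.71 to 0.28 for Ccl5 in NK cells, −0.047 to 0.43 for Ccl5 in mature dendritic cells, −0.29 to 0.37 for Xcr1 in cDC1 and −0.85 to 0.44 for Ccl5 in CD8 T cells. In these fits the runs were unequal between genotypes. Within runs 1 and 2, log2 ratios of Ccl5 were −0.23 and −0.20 in NK cells and −0.32 and −0.17 in CD8 T cells. In mature dendritic cells they were 0.12 and 0.23. Ratios of Ccl4 (0.56 and −0.23) and Ccr1 (0.31 and −0.01) in neutrophils and of Xcr1 in cDC1 (0.33 and −0.40) differed in sign between runs. The part of the run in the sign changes was not tested. Between NK and CD8 T cells Ccl3 turned with DESeq2 (0.020) and ranged from −0.27 to 0.30 when 1 tumor was left out, and Ccl4 turned with clusters (−0.0041). With clusters the folds of Ccl5 between neutrophils and monocytes (0.71) and of Ccr1 (0.026) and Ccl4 (0.72) between C1q and Arg1 Mmp12 macrophages also turned. The causes were not tested. There were 2 tumors per genotype, and gamma delta T cells and B cells were too few for firm levels.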
